A study of Mus musculus with 6 samples.

Results

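The genes described here encode enzymes that remove superoxide and peroxides, and metal-binding proteins that buffer zinc and copper. The 10 genes were chosen by symbol: the superoxide dismutases Sod1, Sod2 and Sod3, the glutathione peroxidases Gpx1, Gpx3 and Gpx4, the peroxiredoxins Prdx1 and Prdx5, and the metallothioneins Mt1 and Mt2. Of these 10, 9 had a row among the 19865 gene symbols of the count tables. Mt1 matched no row and was not analysed here.

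Superoxide leaks from respiration and is made on purpose by NADPH oxidases. Superoxide dismutases turn it into hydrogen peroxide, in the cytosol with copper and zinc (Sod1), in the mitochondrial matrix with manganese (Sod2) and outside the cell with copper and zinc (Sod3). Glutathione peroxidases and peroxiredoxins then reduce peroxides with electrons from glutathione and thioredoxin. In bleomycin-injured lung, oxidants are a known part of the damage, and fibroblasts both make and remove them.

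Expression was measured by 3'SAGE-seq, which counts short tags from near the 3' ends of polyA RNA. The cells were primary lung fibroblasts of Col1a2-GFP Transgenic mice, C57BL/6 in strain, in which the Col1a2 promoter drives a green fluorescent reporter. They carried either trSrebf1, the active form of Srebf1c, a transcription factor of lipid synthesis, induced by doxycycline (3 libraries), or the control vector (3 libraries), delivered by retrovirus with hLNGFR as marker. All recipients were C57BL/6 mice given bleomycin at 2 mg/kg, then the transduced cells through the trachea on day 5. Doxycycline on day 7 is recorded for the libraries of both groups, and donor cells were sorted on day 10 as live, reporter- and marker-positive cells negative for CD45, CD31, EpCAM, CD146 and Ter119. None of the sources used here gives the ages of the mice or says whether replicates are separate mice or cultures, so the p-values cover the spread among these 6 libraries only, and part of it may be technical.

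The trSrebf1 libraries held 4151691 to 4688196 counts and the control libraries 3675146 to 4134354. Srebf1 itself, the check of the labels, had 133, 123 and 108 counts in trSrebf1 libraries and 32, 20 and 33 in control libraries. The 3' end of the transgene is not described, so these tags may come from the cells' own gene. A last exon of Srebf1 also overlaps Rai1 on the opposite strand over 109 bases, and whether the counting used strand is unknown. Values below are CPM, counts scaled to library size with TMM factors. Because each count is a tag from near a transcript's end, CPM were not divided by transcript length. Coordinates are those of GRCm38 (mm10). A gene was called where the edgeR adjusted p was under 0.05 over the 10194 genes tested. In libraries of sorted cells, fewer cells that express a gene and less RNA per cell cannot be told apart.

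The genes moved in both directions. Of the 9 genes with a row, all passed the filter on low counts, 2 rose and 4 fell in trSrebf1 fibroblasts, and 3 were not called. Over all tested genes 30.2% were called, 17.2% higher and 13% lower. The share of these 9 genes called higher was thus near the background and the share called lower above it, in a set chosen with results of these libraries known. The median log2 fold change was -0.02 over the 9 genes and -0.01 over all tested genes. Statements below that the groups did not overlap have no such background, since how many of all tested genes separate was not counted. The mitochondrial dismutase Sod2 and the cytosolic peroxiredoxin Prdx1 rose, whereas the extracellular dismutase Sod3, the peroxidases Gpx1 and Gpx3 and the peroxiredoxin Prdx5 fell.

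**Figure D1:**
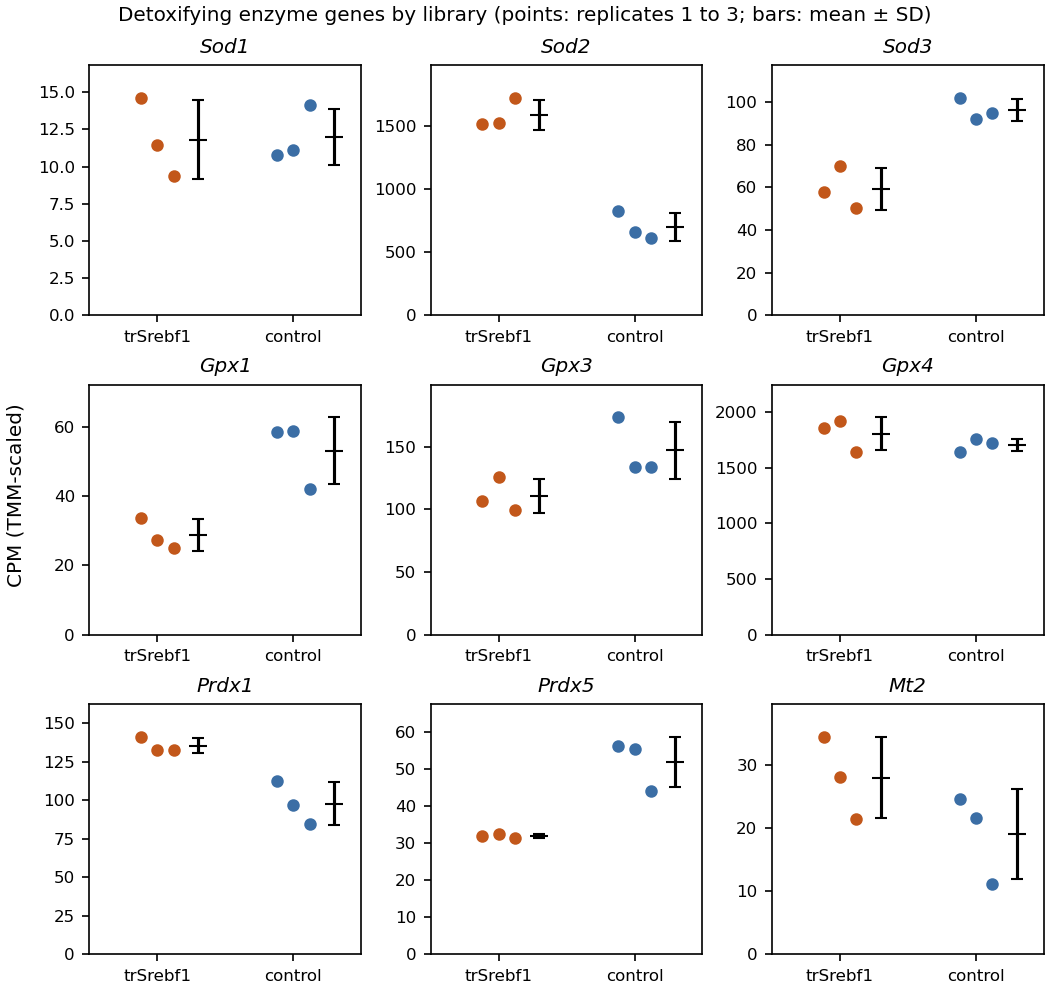
Level of each gene in CPM (y axis, from 0, a scale of its own in each panel) in the trSrebf1 libraries on the left and the control libraries on the right. Points are libraries and bars are mean ± SD (n = 3 each). All trSrebf1 points lie above all control points for Sod2 and Prdx1 and below them for Sod3, Gpx1, Gpx3 and Prdx5, while the groups overlap for Sod1, Gpx4 and Mt2. How many of all tested genes separate in this way was not counted.

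The regions around the start sites of 2 genes that rose and of 2 that fell are shown as the start-site context of genes whose levels changed in opposite directions. Of these, only Prdx1 and Prdx5 belong to the same enzyme family. The windows come from RefSeq on GRCm38.p6, run 5′ to 3′ on the gene's strand and cover 250 bases before and 50 after the start. Of the 10 genes, 9 have such a window. Capitals mark matches, on either strand, to the antioxidant response element core TGACNNNGC or to TGCNCNC, a loosened form of the metal response element core. TGCNCNC allows any base after TGC, so a match to it need not be a metal response element core. The sterol regulatory element core TCACNCCAC was searched as well.
Sod2, which rose, chr17:13007589-13007888, plus strand: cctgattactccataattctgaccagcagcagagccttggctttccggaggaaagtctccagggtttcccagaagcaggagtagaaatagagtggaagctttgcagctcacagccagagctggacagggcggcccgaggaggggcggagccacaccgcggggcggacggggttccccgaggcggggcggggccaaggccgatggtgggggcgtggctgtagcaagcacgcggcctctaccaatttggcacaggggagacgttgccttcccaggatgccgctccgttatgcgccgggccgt
Prdx1, which rose, chr4:116685349-116685648, plus strand: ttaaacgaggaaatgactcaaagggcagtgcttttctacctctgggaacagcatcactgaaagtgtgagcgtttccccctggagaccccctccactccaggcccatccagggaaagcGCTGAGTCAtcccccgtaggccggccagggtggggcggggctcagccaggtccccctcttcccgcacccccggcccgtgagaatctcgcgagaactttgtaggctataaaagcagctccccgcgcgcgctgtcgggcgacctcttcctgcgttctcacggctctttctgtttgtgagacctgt
Gpx1, which fell, chr9:108338830-108339129, plus strand: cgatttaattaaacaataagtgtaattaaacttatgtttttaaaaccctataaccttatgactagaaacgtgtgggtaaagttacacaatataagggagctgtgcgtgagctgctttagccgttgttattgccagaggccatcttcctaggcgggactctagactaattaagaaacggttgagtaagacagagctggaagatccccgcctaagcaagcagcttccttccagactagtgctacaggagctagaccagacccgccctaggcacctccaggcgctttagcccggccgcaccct
Prdx5, which fell, chr19:6910057-6910356, minus strand: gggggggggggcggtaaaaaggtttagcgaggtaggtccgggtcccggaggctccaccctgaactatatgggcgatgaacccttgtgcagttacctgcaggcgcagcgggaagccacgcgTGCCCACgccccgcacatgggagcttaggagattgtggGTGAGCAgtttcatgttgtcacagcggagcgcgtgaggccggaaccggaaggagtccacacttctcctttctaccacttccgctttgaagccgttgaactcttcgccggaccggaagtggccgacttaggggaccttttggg

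The Prdx1 window held 1 antioxidant response element core, GCTGAGTCA on the opposite strand, whose first base lies 133 bases before the start. The Sod2 and Gpx1 windows held no match to any of the 3 motifs, and the Prdx5 window held 2 matches to the loosened metal motif TGCNCNC. The window of Mt2 (chr8:94172368-94172667, plus strand) held 1 antioxidant response element core, TGACTCAGC, 79 bases before the start, and 6 matches to TGCNCNC. The window of Sod1, which was not called, held the antioxidant core GCGTGGTCA on the opposite strand, 56 bases before the start. The Prdx1 and Mt2 cores also contain the letters TGANTCA of an AP-1 site, and the Sod1 core does not. Of the 4 windows of Gpx4, also not called, 3 held 1 or 2 matches to TGCNCNC, the Mt1 window held 3, and the Gpx3 window held none of the motifs. Among 32851 RefSeq windows of 300 bases, 12.4% held the antioxidant core, 51.0% the loosened metal motif TGCNCNC and 1.24% the sterol core. No sterol core was found in a window of the 9 genes. A match is a string of letters and was not tested as a site.

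Sod2 (chromosome 17, 13006846 to 13040063, plus strand) encodes the manganese enzyme of the mitochondrial matrix. Its CPM were 1512, 1525 and 1721 in the trSrebf1 libraries and 824, 662 and 612 in the control libraries. Every trSrebf1 library was above every control library. The means were 1586 ± 117 CPM in trSrebf1 and 699 ± 111 CPM in control fibroblasts (SD, n = 3 each), a 2.27-fold rise (log2 fold change 1.18, SE 0.12, edgeR adjusted p = 5.25e-07). The last 300 bases of 3 of its 8 annotated transcripts resemble transcripts of 9 other genes over 100 bases or more at 95% identity or more. The 1 RefSeq-linked Sod2 transcript is among the 3. Of the 6 of these 9 other genes with a row, Zmynd8 stood highest, at 278 CPM in trSrebf1 and 132 CPM in control, and the other 5 were at or below 16.3 CPM. Zmynd8 rose by 1.07 on the log2 scale (edgeR adjusted p = 5.29e-07). Where in the Zmynd8 transcript the match lies, and on which strand, was not examined, so whether tags are split between the pair is unknown.

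Sod3 (chromosome 5, 52363791 to 52371418, plus strand) encodes the secreted dismutase that binds heparan sulfate in the matrix. Its CPM were 57.6, 69.8 and 50.2 in the trSrebf1 libraries and 102, 92.1 and 94.8 in the control libraries. The trSrebf1 libraries were all lower, at a mean of 59.2 ± 9.86 CPM against 96.3 ± 5.11 CPM in control (SD, n = 3 each). The log2 fold change was -0.70 (SE 0.14, edgeR adjusted p = 8.72e-04).

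Sod1 (chromosome 16, 90220754 to 90226329, plus strand) encodes the copper-zinc enzyme of the cytosol. It had few tags, with 68, 45 and 41 counts in the trSrebf1 libraries and 41, 43 and 60 in the control libraries. The groups overlapped, at 11.8 ± 2.65 CPM in trSrebf1 and 12.0 ± 1.87 CPM in control (SD, n = 3 each). The log2 fold change was -0.02, with a 95% interval of -0.54 to 0.50 (edgeR adjusted p = 0.955). Changes within that interval are not excluded. The 3' ends of both annotated Sod1 transcripts resemble the processed pseudogene Gm8566, so its count is uncertain. Ccs, the chaperone that loads copper into the Sod1 protein, was not called either (log2 fold change -0.36, SE 0.29, edgeR adjusted p = 0.381).

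Summed over the 3 dismutases, CPM were 1584, 1607 and 1781 in trSrebf1 libraries and 937, 766 and 721 in control libraries. Sod2 gave most of that sum, which counts tags and includes the uncertain Sod1 count. It held 95.7% ± 0.88 of the dismutase tags in trSrebf1 and 86.5% ± 1.54 in control libraries, and Sod3 held 3.60% ± 0.76 in trSrebf1 and 12.0% ± 1.13 in control libraries (SD, n = 3 each). Catalase, encoded by Cat, splits hydrogen peroxide in peroxisomes. It had 20, 12 and 14 counts in trSrebf1 and 7, 9 and 7 in control libraries. Every trSrebf1 library was above every control library, yet Cat was not called (log2 fold change 0.86, SE 0.42, edgeR adjusted p = 0.143).

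Gpx1 (chromosome 9, 108338903 to 108340343, plus strand) encodes the selenium-containing peroxidase of the cytosol and mitochondria. Its CPM were 33.8, 27.4 and 24.9 in the trSrebf1 libraries and 58.5, 58.8 and 42.0 in the control libraries. The groups did not overlap, with means of 28.7 ± 4.57 CPM in trSrebf1 and 53.1 ± 9.62 CPM in control (SD, n = 3 each). Gpx1 fell by 0.88 on the log2 scale (SE 0.18, edgeR adjusted p = 8.83e-04).

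Gpx3 (chromosome 11, 54902453 to 54910377, plus strand) encodes the secreted selenium-containing peroxidase. Its CPM were 107, 126 and 99.4 in the trSrebf1 libraries and 173, 134 and 134 in the control libraries. All trSrebf1 libraries were lower, though trSrebf1 replicate 2 came close to the 2 lower control libraries. The means were 111 ± 13.5 CPM in trSrebf1 and 147 ± 22.8 CPM in control (SD, n = 3 each). Gpx3 fell by 0.41 on the log2 scale (SE 0.13, edgeR adjusted p = 0.0266). The call was lost without control replicate 1 (log2 fold change -0.27, edgeR adjusted p = 0.133), without trSrebf1 replicate 1 (-0.38, 0.0917) or without trSrebf1 replicate 3 (-0.33, 0.119). Over 15 alternatives its adjusted p ranged from 0.00692 to 0.133.

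Gpx4 (chromosome 10, 80047166 to 80056439, plus strand) encodes the peroxidase that reduces lipid hydroperoxides within membranes and restrains ferroptosis. Its CPM were 1854, 1924 and 1645 in the trSrebf1 libraries and 1645, 1755 and 1719 in the control libraries. The groups overlapped, with means of 1807 ± 145 CPM in trSrebf1 and 1706 ± 56.0 CPM in control (SD, n = 3 each). The log2 fold change was 0.08, with a 95% interval of -0.12 to 0.29 (edgeR adjusted p = 0.578). Gpx4 held 90.9% ± 0.20 of the tags of 5 glutathione peroxidases in trSrebf1 and 87.1% ± 1.54 in control libraries (SD, n = 3 each). All 7 annotated Gpx4 transcripts resemble 2 other genes at their 3' ends, so tags may be lost or split. Of the 5 glutathione peroxidase genes tested, 2 fell and 3 were not called, beside 13% lower and 30.2% called in either direction over all tested genes. Gpx7 and Gpx8, peroxidases of the endoplasmic reticulum, had log2 fold changes of -0.27 (SE 0.19, edgeR adjusted p = 0.334) and -0.46 (SE 0.19, edgeR adjusted p = 0.0776). Gpx8 passed the threshold with upper-quartile factors (adjusted p = 0.0342) and without control replicate 1 (0.0196), in a range of 0.0196 to 0.333 over its alternatives.

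Prdx1 (chromosome 4, 116685544 to 116700822, plus strand) encodes a cytosolic peroxiredoxin with a pair of active cysteines, recycled by thioredoxin. Its CPM were 141, 133 and 132 in the trSrebf1 libraries and 112, 96.8 and 84.2 in the control libraries. Every trSrebf1 library was above every control library, with means of 135 ± 4.98 CPM in trSrebf1 and 97.8 ± 14.2 CPM in control (SD, n = 3 each). The rise was 1.38-fold (log2 fold change 0.47, SE 0.13, edgeR adjusted p = 0.00823). It was lost without control replicate 3 (log2 fold change 0.35, edgeR adjusted p = 0.0865), in a range of 0.00148 to 0.0865 over 15 alternatives. The 3' ends of 5 of its 6 annotated transcripts resemble 3 other genes, so its count is uncertain. The 1 RefSeq-linked Prdx1 transcript is not among the 5.

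Prdx5 (chromosome 19, 6906697 to 6910106, minus strand) encodes a peroxiredoxin found in mitochondria, peroxisomes and cytosol. Its CPM were 32.0, 32.5 and 31.5 in the trSrebf1 libraries and 56.4, 55.5 and 44.1 in the control libraries. The trSrebf1 libraries were close to each other and all below control, with means of 32.0 ± 0.48 CPM in trSrebf1 and 52.0 ± 6.83 CPM in control (SD, n = 3 each). Prdx5 fell by 0.70 on the log2 scale (SE 0.16, edgeR adjusted p = 0.00209).

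Of the 6 peroxiredoxin genes tested, 1 rose, 2 fell and 3 were not called, beside 17.2% higher and 13% lower over all tested genes. Prdx6 (chromosome 1, 161240112 to 161251219, minus strand), which reduces phospholipid hydroperoxides with glutathione, fell by 0.92 on the log2 scale (SE 0.19, edgeR adjusted p = 9.80e-04), to 17.5 ± 2.79 CPM in trSrebf1 against 33.2 ± 4.66 CPM in control (SD, n = 3 each). Prdx2 of the cytosol, Prdx3 of mitochondria and Prdx4 of the endoplasmic reticulum were not called. Their log2 fold changes were 0.14 (SE 0.20), -0.25 (SE 0.25) and 0.01 (SE 0.13), with edgeR adjusted p-values of 0.662, 0.507 and 0.969. The Prdx2 count is uncertain, since the 3' ends of 5 of its 8 annotated transcripts resemble 2 other genes. A last exon of Prdx2 also overlaps Junb on the opposite strand over 173 bases. Summed over the 6 genes the family stood at 324 ± 20.8 CPM in trSrebf1 and 320 ± 34.1 CPM in control (SD, n = 3 each). Within that sum Prdx1 held 42.0% ± 3.39 of the tags in trSrebf1 and 30.4% ± 1.30 in control, and Prdx5 held 9.91% ± 0.49 in trSrebf1 and 16.2% ± 1.33 in control.

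**Figure D2:**
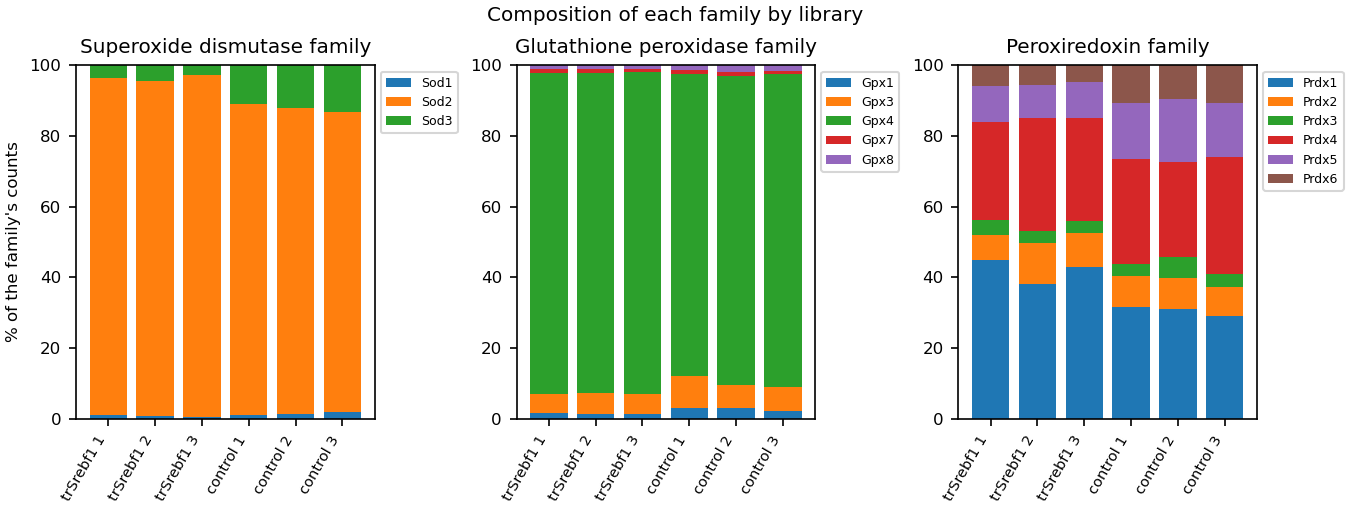
Share of each family's counts held by each gene (y axis, % of the family's counts) in every library, the trSrebf1 libraries left of the control libraries. Sod2 and Gpx4 fill most of their families in all 6 libraries, and the Prdx1 part is larger and the Prdx5 and Prdx6 parts smaller in the trSrebf1 libraries. Shares are of tags, and likeness to other genes at the 3' end may affect the counts of Sod1, Sod2, Gpx4, Prdx1 and Prdx2.

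**Figure D3:**
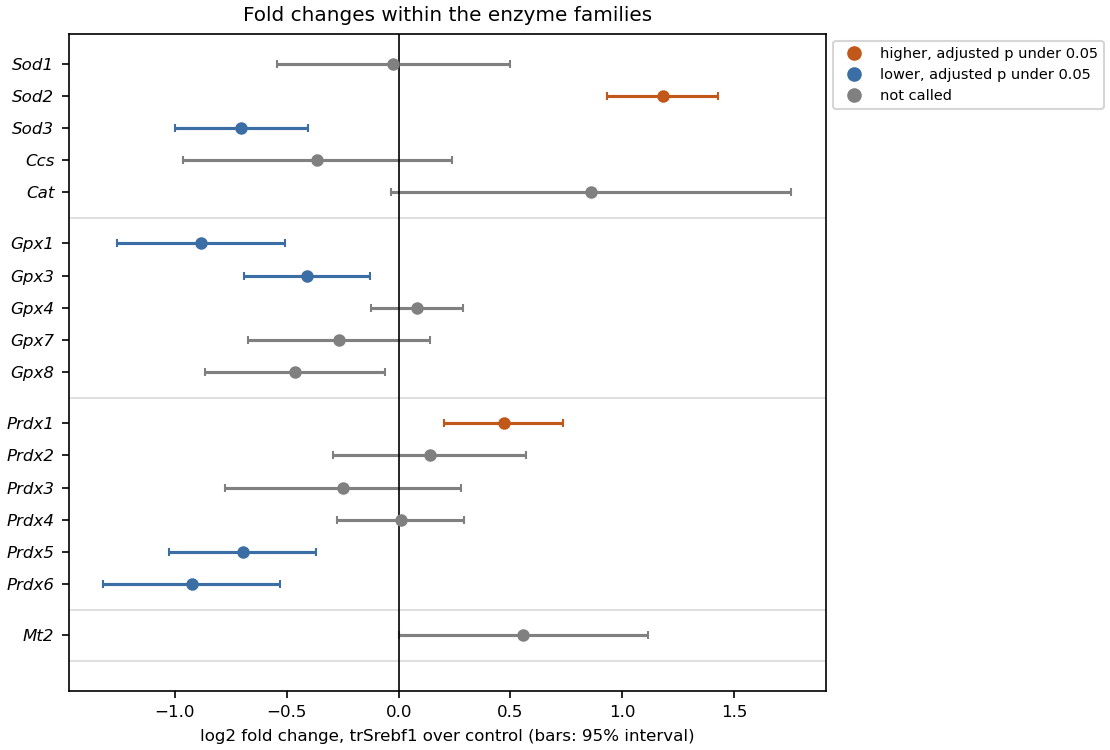
Log2 fold change, trSrebf1 over control (x axis), with its 95% interval for every family gene tested. Orange points were called higher, blue points lower and grey points were not called. Sod2 at 1.18 and Prdx1 at 0.47 are the called rises, and Sod3, Gpx1, Gpx3, Prdx5 and Prdx6 the called falls.

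Mt2 (chromosome 8, 94172664 to 94173568, plus strand) encodes a small cysteine-rich protein that binds zinc and copper. Its CPM were 34.4, 28.2 and 21.5 in the trSrebf1 libraries and 24.6, 21.7 and 11.1 in the control libraries. The groups overlapped, since trSrebf1 replicate 3 lay below 2 control libraries, and the means were 28.0 ± 6.47 CPM in trSrebf1 and 19.1 ± 7.13 CPM in control (SD, n = 3 each). The log2 fold change of 0.56 (SE 0.26, 95% interval -9.3e-05 to 1.12) did not pass the threshold (edgeR adjusted p = 0.127). It passed in 3 of 15 alternatives, among them no filter on low counts (adjusted p = 0.0307) and leaving out control replicate 1 (0.0378), and the adjusted p ranged from 0.0307 to 0.457. Its last exon overlaps an exon of Gm45774 on the opposite strand over 77 bases, and whether the counting used strand is unknown.

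Members of a family were also set against each other within each library, which needs no scaling between libraries. The log2 ratio of Sod2 to Sod1 counts was 6.68, 7.05 and 7.50 in trSrebf1 and 6.24, 5.88 and 5.42 in control libraries, a difference of 1.23. For Sod3 to Sod1 the difference was -0.67, for Gpx1 to Gpx4 -0.96 and for Gpx3 to Gpx4 -0.49. For Prdx5 to Prdx1 the log2 ratio was -2.13, -2.03 and -2.06 in trSrebf1 and -0.99, -0.80 and -0.93 in control libraries, a difference of -1.17. The groups did not overlap in any of the 5 ratios. Each ratio holds a called gene whose own CPM did not overlap between the groups, so this adds no separate evidence. How often other gene pairs separate was not counted. The counts of Sod1, Gpx4 and Prdx1, each the divisor of a ratio, are uncertain, as described above. An exact permutation test, two-sided over the 20 arrangements of the libraries, gave p = 0.1 for each, its smallest value, and 0.1 after Benjamini-Hochberg adjustment over the 5, so none can pass 0.05 in this design.

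**Figure D4:**
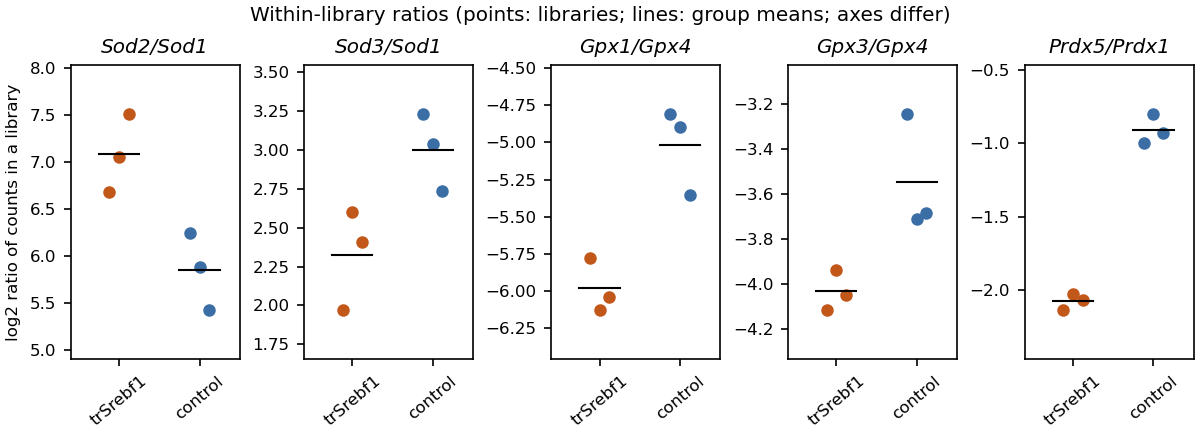
Log2 ratio of the counts of 2 genes within each library (y axis, a scale of its own in each panel), the trSrebf1 libraries left of the control libraries. Points are libraries and lines are group means (n = 3 each). The Prdx5 to Prdx1 panel has the groups farthest apart relative to their spread, at means of -2.08 in trSrebf1 and -0.91 in control.

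Genes that serve these enzymes were counted in 5 further lists. Thiol recycling, the thioredoxin and glutaredoxin systems that return electrons to peroxidases, had 6 of 18 tested genes higher and 12 not called (median log2 fold change 0.22, against -0.01 over all tested genes). Over all tested genes 17.2% were higher, 13% lower and 30.2% called in either direction. The share of this list called in either direction was thus near the background. Its share called higher was above the background and none was lower, in a list chosen with earlier results of these data known. Srxn1, the sulfiredoxin that repairs over-oxidised peroxiredoxins, rose to 11.3 ± 0.59 CPM in trSrebf1 against 3.76 ± 0.59 CPM in control (SD, n = 3 each). Its log2 fold change was 1.58 (SE 0.28, edgeR adjusted p = 3.26e-04). Nxn (nucleoredoxin) rose by 1.47 on the log2 scale (SE 0.12), Txnrd3, a thioredoxin reductase, by 1.55 (SE 0.26), and Txnip, which binds and blocks thioredoxin, by 1.30 (SE 0.17), with edgeR adjusted p-values of 3.94e-08, 2.11e-04 and 1.06e-05. The list also holds Sesn1 and Sesn2, stress-induced sestrins, among the genes that rose. The 12 not called include the thioredoxins themselves, the glutaredoxins, glutathione reductase and the thioredoxin reductases other than Txnrd3. Txnip overlaps an exon of Gm15441 on the opposite strand.

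Selenoprotein synthesis factors build and insert the selenocysteine that Gpx1, Gpx3 and Gpx4 carry. Of 7 tested, 3 were higher and 1 lower (median log2 fold change 0.40), beside 17.2% higher and 13% lower over all tested genes. Sephs2, which makes the selenium donor, rose by 0.86 (SE 0.18), Scly, which frees selenium from selenocysteine, by 1.66 (SE 0.28), and Lrp8, a receptor for selenoprotein P, by 1.60 (SE 0.29), with edgeR adjusted p-values of 0.00105, 1.86e-04 and 3.24e-04. Sephs1, a relative of Sephs2, fell by 1.33 (SE 0.40, edgeR adjusted p = 0.0181), at 2.18 ± 1.13 CPM in trSrebf1 and 5.60 ± 0.49 CPM in control (SD, n = 3 each). Leaving out trSrebf1 replicate 2, trSrebf1 replicate 3 or control replicate 3 ended that call (adjusted p of 0.0703, 0.0647 and 0.0586). Over all its alternatives the adjusted p was 0.00902 to 0.0703. Scly and Sephs2 overlap exons of other genes on the opposite strand.

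Among 14 tested other selenoproteins 3 were higher and 2 lower (median log2 fold change -0.12), shares near the 17.2% higher and 13% lower of all tested genes. Of the 3, Sephs2 and Txnrd3 also stand in the lists above. Sepp1, the secreted selenium carrier, fell to 419 ± 65.1 CPM in trSrebf1 against 915 ± 208 CPM in control (SD, n = 3 each). Its log2 fold change was -1.13 (SE 0.16, edgeR adjusted p = 1.11e-04). Its last exon overlaps Ccdc152 on the opposite strand over 439 bases. Ept1, a phospholipid synthesis enzyme, fell by 1.49 (SE 0.31, edgeR adjusted p = 0.00512), a call made in 14 of 15 alternatives (adjusted p of 7.29e-16 to 0.0560).

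Of 10 tested sources of superoxide and peroxide, 2 were higher and 5 lower (median log2 fold change -0.51), and 3 were lower when control replicate 2 was left out. Over all tested genes 17.2% were higher and 13% lower. Nox4, an NADPH oxidase of fibroblasts that releases hydrogen peroxide, fell to 17.9 ± 2.64 CPM in trSrebf1 against 41.3 ± 8.40 CPM in control (SD, n = 3 each, log2 fold change -1.21, SE 0.19, edgeR adjusted p = 9.30e-05). Xdh, the xanthine oxidoreductase, fell by 1.84 (SE 0.35, edgeR adjusted p = 5.19e-04). Ero1l, which makes peroxide during disulfide formation in the endoplasmic reticulum, rose by 1.28 (SE 0.28, edgeR adjusted p = 0.00202). In each of Nox4, Xdh and Ero1l, 1 annotated transcript resembles other genes at its 3' end. Duox2, a peroxide-producing oxidase of epithelia, had 190, 95 and 82 counts in trSrebf1 libraries and 0 in each control library. That is at least 107-fold higher in trSrebf1 (edgeR adjusted p = 1.06e-06), against a floor of 3 counts over the control group, a bound that covers counting error only.

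Zinc and copper handling genes had 4 of 22 tested higher and 2 lower (median log2 fold change -0.08), with 1 lower when any 1 control library was left out. These shares were near or below the 17.2% higher and 13% lower of all tested genes. The zinc exporter Slc30a1, like metallothioneins a known target of the metal sensor Mtf1, rose by 0.83 (SE 0.19), and the zinc importers Slc39a6 and Slc39a10 by 0.96 (SE 0.14) and 1.13 (SE 0.31), with edgeR adjusted p-values of 0.00230, 3.75e-05 and 0.00847. Slc30a7, which loads zinc into the Golgi, fell by 0.52 (SE 0.12, edgeR adjusted p = 0.00226) and overlaps exons of other genes on the opposite strand.

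**Figure D5:**
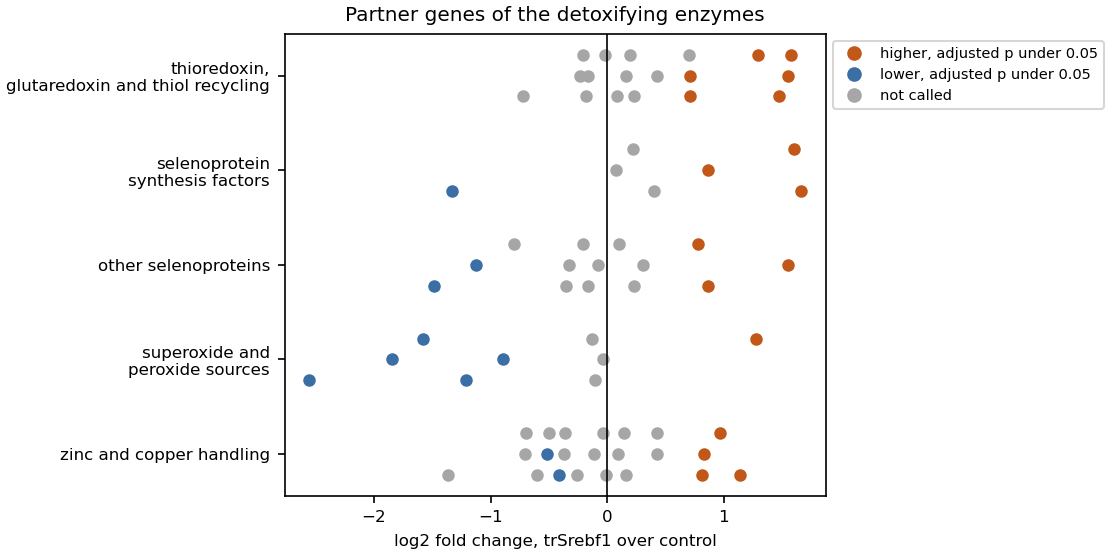
Log2 fold change, trSrebf1 over control (x axis), of the tested genes of 5 partner lists (rows). Orange points were called higher, blue points lower and grey points were not called, vertical offsets only separate points, and Duox2, at 0 in every control library, is not drawn. Txnrd3 and Sephs2 belong to 2 of the lists. All called genes of the thiol recycling list lie right of 0, and 5 of the called sources of superoxide and peroxide lie left of it.

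The genes whose level followed each called gene most closely over the 6 libraries were found by the distance between centred log2 CPM, among 3780 genes of 20 CPM or more. For Sod2 they were Ftl1, Ppard and Rpa1, at distances of 0.11, 0.15 and 0.15. For Prdx1 they were Echs1, Pik3c2a and Psmc3 (0.12, 0.12 and 0.13), and for Prdx5 Lasp1, Slc25a4 and Csf1 (0.17, 0.17 and 0.17). Sod3 was closest to Tmub1, Olfml2b and Rint1 (0.11, 0.11 and 0.15), Gpx1 to Cp, Phactr4 and Ror1 (0.17, 0.25 and 0.25) and Gpx3 to Phf13, Rcn1 and Ccny (0.09, 0.12 and 0.12). Because the 6 libraries form 2 groups, genes with a similar difference between the groups are close by construction.

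Markers of the sorted cells and of other cell types were read in the same libraries. All 9 fibroblast markers had a row, and their summed level was 30786 to 35508 CPM in trSrebf1 and 42575 to 54864 CPM in control, with 7 lower, Col1a2 of the reporter's promoter among them, and 1 higher. The 8 pericyte and smooth muscle markers all had a row and summed to 211 to 244 CPM in trSrebf1 and 109 to 121 CPM in control, and of the 6 tested, Cspg4 and Des rose and Myh11, Kcnj8 and Abcc9 fell. Over all tested genes 17.2% were higher and 13% lower, so the share of fibroblast markers called lower was above the background. The part of the fibroblast, pericyte and smooth muscle markers in the changes above was not tested. Of 9 macrophage markers 6 had a row, and they summed to 0.86 to 2.06 CPM in trSrebf1 and 0.47 to 4.46 CPM in control. Endothelial markers (5 of 6 with a row) summed to at most 2.06 CPM, lymphocyte markers (2 of 6) to at most 1.37 CPM and erythroid markers (6 of 8) to at most 2.06 CPM in any library. The 8 epithelial markers, led by Sftpb, summed to 7.31 to 22.6 CPM in trSrebf1 and 9.70 to 15.6 CPM in control. Among them Cdh1 had 14, 2 and 11 counts in trSrebf1 and 0, 1 and 0 in control libraries. Krt8 went the other way, with 0, 1 and 0 counts in trSrebf1 and 1, 3 and 2 in control libraries. Both were too low to be tested. Csf3r was the only one of 6 neutrophil markers with a row, at 7.31 to 9.64 CPM in trSrebf1 and 7.08 to 9.18 CPM in control.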

How the data were processed

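Tags were counted in 6 libraries of sorted donor fibroblasts, 3 trSrebf1 and 3 control, each from 10000 cells per the labels' protocols. The authors deposited a table of raw counts, whole numbers by gene symbol, for each library. Per the submitters' processing notes, which state no role for either, Bowtie2 2.2.5 and mm10 were used. How tags were assigned to genes, with which annotation and whether by strand, was not given in the sources used here. No molecular identifiers are mentioned, and the bounds given cover counting error only.

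From the counts, all 10194 genes passing filterByExpr (minimum count 10, minimum total 15) entered a fit in edgeR 4.0.16 (R 4.3.3): TMM factors, robust glmQLFit and a two-sided glmQLFTest on the group, adjusted by Benjamini-Hochberg, threshold 0.05. Fold changes are trSrebf1 over control with a prior count of 0.125, and the SE is the size of the log2 fold change divided by the square root of F. The script was checked on data with known answers. Alternatives were RLE, upper-quartile or no factors, other filters, DESeq2 1.42.0, limma-voom (limma 3.58.1), a replicate block, leaving out Ctsd (6.53% to 6.81% of trSrebf1 and 0.86% to 0.95% of control counts), and leaving out each library. Libraries of the same group differed by more than sampling noise (chi-square over degrees of freedom 4.91 to 9.23), so all were kept as separate samples.

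The genes and lists were chosen with earlier results of these data known. Named genes are the 10 members, Srebf1, every tested gene of the enzyme families, and up to 4 called genes with the smallest p of each other list. Coordinates and 3' ends are from GENCODE M21 on GRCm38, which is mm10. A planned ratio of Mt2 to Mt1 could not be formed because Mt1 matched no row.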

Additional observations from a re-analysis of the deposited data

How the results depend on the processing

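Each of the 9 genes was refitted under 15 alternatives. The sides of the threshold and directions of Sod2, Sod3, Gpx1 and Prdx5 held in all 15, with log2 fold changes of 1.08 to 1.32, -0.83 to -0.59, -1.04 to -0.79 and -0.82 to -0.63. Leaving out 1 library in turn gave -0.51 to -0.27 for Gpx3, 0.35 to 0.58 for Prdx1 and 0.26 to 0.79 for Mt2. The Mt2 call was gained with no filter (0.57) and with the replicate block (0.59, adjusted p = 0.0363). The cause was not tested. Sod1 changed sign in 3 alternatives without passing the threshold, from -0.21 to 0.12, and Gpx4 stayed uncalled at 0.00 to 0.15. Same-numbered libraries correlated at -0.11 to 0.01 in their deviations from group means, so the numbers were not taken as pairs. The block ended the call of Ept1 (adjusted p = 0.0560, range 7.29e-16 to 0.0560). Of 27 other named genes, Srebf1 included, 24 had the same call throughout, and the exceptions were Gpx8, Sephs1 and Ept1. Genes called over the whole table numbered 1535 to 1977 higher and 1060 to 1649 lower. At 41 to 68 counts a library, depth limits what Sod1 can show.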
